A study of Setaria viridis with 11 samples.

Results

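Among transcripts of brassinosteroid (BR) and sterol metabolism and BR perception, 6 that were higher in heat-stressed leaves of *Setaria viridis* are described here, out of 40599 transcript identifiers in the count files and 20 that the study lists for these pathways. The 6 are 2 BR biosynthesis transcripts (Si001130m and Si010466m), the BR receptor BRI1 (Si000117m), and 3 sterol transcripts, namely CYP51 (Si026279m) and 2 copies of DWF1 (Si034967m and Si006158m). They were selected on their measured heat-against-control difference in these same plants, so their differences between conditions are given as a description, with the standard error of the fit and without a p-value, and any count of calls among them was fixed by the selection. Leaves came from 6 plants of the wild-type genotype A10 that spent 2 weeks in days of 42 °C and nights of 32 °C. The other 5 were A10 plants kept in days of 28 °C and, per the labels, nights of 20 °C. The study's methods also give 20 °C, while its results and figure captions give a slightly warmer control night. All plants were harvested on day 28 and had 16 h of light, 380 ppm CO2 and an irradiance of 1000 μmol quanta m-2 s-1. Each library was made from pooled midsections of fully expanded leaves, and each condition had its own growth chamber, so that temperature and chamber cannot be told apart. The files hold names for none of the transcripts. Names come from the study's list, which in the copy read here does not say which enzyme each BR biosynthesis transcript encodes.

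Brassinosteroids are steroid hormones that promote cell elongation and division, and mutants that lack them are dwarfed. In Arabidopsis they are made from the membrane sterol campesterol by cytochrome P450 enzymes, among them DWF4, CPD and the CYP85A oxidases, and campesterol is itself made by a chain of demethylases, reductases, isomerases and desaturases. The hormone binds the receptor kinase BRI1 at the cell surface, which leads to inactivation of the kinase BIN2, and BIN2 otherwise phosphorylates and holds back the transcription factors of the BZR family.

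The libraries held 34731849 to 47441261 counts in the heat-stressed plants and 34362084 to 54011056 in the control plants. A single plastid transcript, psbA, took 46.1% to 48.5% of the counts under heat and 61.8% to 69.6% in the control plants. Levels are therefore given as counts per 1000000 counts (CPM) with TMM factors, which allow for such a difference in composition and ran from 1.3 to 1.5 in the heat-stressed plants and from 0.576 to 0.796 in the control plants. Library size as the only scaling would lift transcripts in general, with a median log2 fold change of 1.07 over all tested transcripts where TMM factors give 0.02. Values under that scaling are therefore given relative to its median. The change of scaling shifted all transcripts by a similar amount, so a value relative to the median stays nearly the same by construction. It is no independent check on the scaling. All 5 leaf markers examined (psbA, rbcL, PEPC, carbonic anhydrase and LHCB3) had at least 2569 counts in every heat-stressed plant and at least 3658 in every control plant. Reads that overlapped several features made up 13.7% to 15.2% of the counted plus ambiguous reads under heat and 8.52% to 11.2% in the control plants, and their part in the differences below was not tested. In a bulk leaf library, more cells of a type and more RNA per cell cannot be told apart.

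The larger fold changes among the 6 transcripts were those of the 2 DWF1 copies. In Arabidopsis DWF1 is the reductase that forms campesterol at the end of the sterol chain. Si006158m lay between 6.70 and 17.0 CPM in the 6 heat-stressed plants (median 7.67). In control plants 1 to 5 it had 1.09, 1.72, 1.63, 2.54 and 0.979 CPM. Every heat-stressed plant was thus above every control plant, with the lowest heat-stressed plant 2.64-fold above the highest control plant. Raw counts were 344 to 1107 under heat and 29 to 89 in the control plants. The mean was 9.53 ± 3.99 CPM under heat (SD, n = 6) and 1.59 ± 0.620 CPM in the control plants (SD, n = 5), with a log2 fold change of 2.58 (SE 0.30), or 5.96-fold. Heat-stressed plant 2 stood at the top with 17.0 CPM, and without it the log2 fold change was 2.36.

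The other DWF1 copy, Si034967m, was read far less often, with 79 to 165 counts under heat and 7 to 21 in the control plants. Its level ran from 1.53 to 2.48 CPM in the heat-stressed plants (median 2.23). The control plants had 0.339, 0.354, 0.437, 0.599 and 0.356 CPM. The conditions did not overlap, with means of 2.1 ± 0.379 CPM (SD, n = 6) under heat and 0.417 ± 0.109 CPM (SD, n = 5) in the control plants, and the log2 fold change was 2.31 (SE 0.21), or 4.95-fold. The balance between the copies overlapped between the conditions. Si006158m held 80.9% ± 4.25 (SD, n = 6) of the DWF1 counts of a heat-stressed plant and 78.5% ± 3.77 (SD, n = 5) of those of a control plant. These shares are of counts, without correction for transcript length. How alike the copies are in sequence, and so how their reads were split, was not tested.

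CYP51 is the sterol demethylase near the start of the chain that leads to campesterol. Si026279m had 15 to 21 CPM in the heat-stressed plants (median 18.8). In control plants 1 to 5 the values were 5.20, 3.49, 5.34, 5.62 and 5.87 CPM. All heat-stressed plants were above all control plants, with 809 to 1365 counts against 69 to 198, and control plant 2 was the lowest of all. The means were 18.2 ± 2.52 CPM under heat (SD, n = 6) and 5.10 ± 0.939 CPM in the control plants (SD, n = 5), a log2 fold change of 1.83 (SE 0.14), or 3.55-fold.

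The study lists 2 further CYP51 transcripts, and neither was called higher. Si029407m had 2.01 to 3.27 CPM under heat and 3.74 to 4.92 CPM in the control plants. In edgeR's quasi-likelihood test Si029407m was called lower, at -0.70 on the log2 scale (SE 0.14, adjusted p = 5.56e-04), and with library size as the only scaling it had 0.37 (adjusted p = 0.0516), which was -0.70 relative to the median of all tested transcripts. Si026280m, with 21 to 81 counts under heat and 12 to 20 in the control plants, lay at 0.316 to 1.35 CPM under heat and 0.356 to 0.753 CPM in the control plants, and its log2 fold change of 0.55 (SE 0.36) did not pass the threshold (adjusted p = 0.199). Within a plant, where no scaling enters, Si026279m held 79.6% to 88.3% of the CYP51 counts under heat and 40.4% to 56.9% in the control plants. This share averaged 84.0% ± 2.955 under heat (SD, n = 6) and 51% ± 6.30 in the control plants (SD, n = 5). Together the 3 transcripts had 21.7 ± 2.91 CPM under heat (SD, n = 6) and 9.95 ± 0.893 CPM in the control plants (SD, n = 5). Si026279m was chosen for its rise and Si029407m was lower by the same comparison, so the separation of the Si026279m share is a description.

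**Figure D1:**
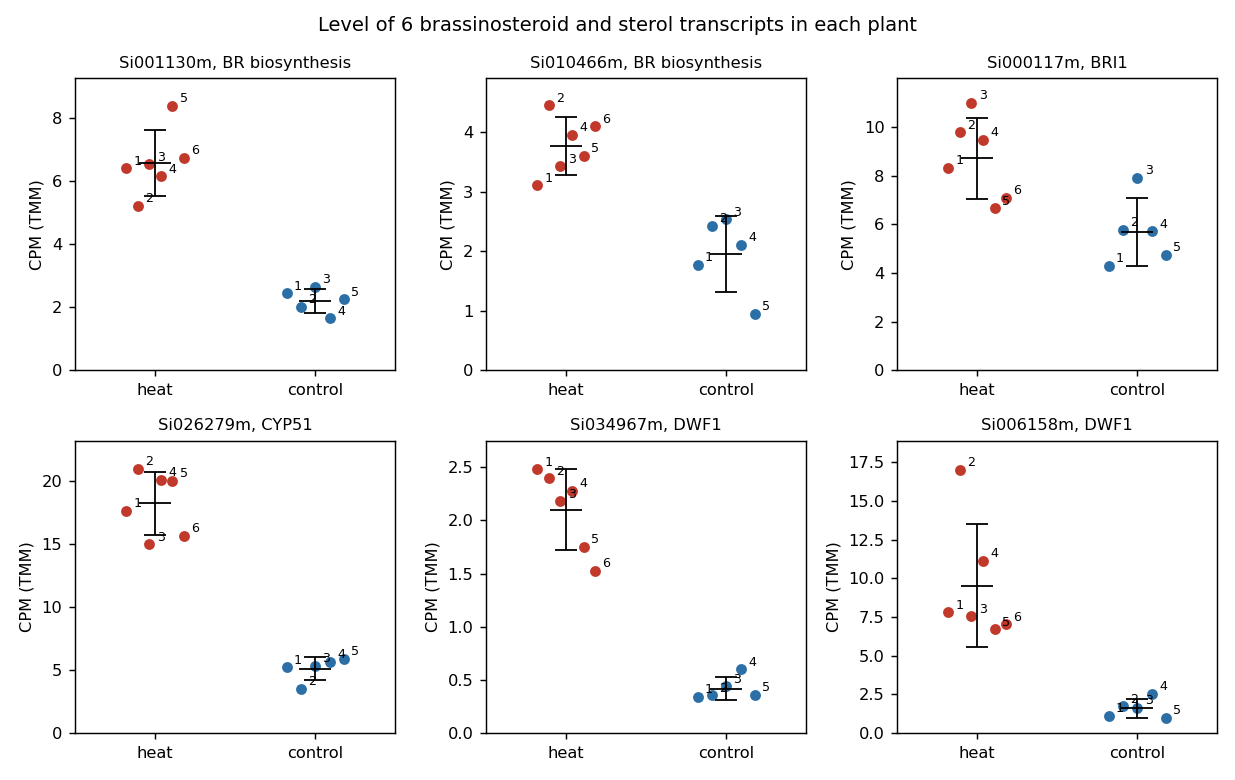
Level of each of the 6 transcripts in CPM with TMM factors, for 6 heat-stressed and 5 control plants. Points are plants with their number, and bars are the mean ± SD. Heat-stressed plants lie above all control plants in 5 panels, and in the BRI1 panel heat-stressed plants 5 and 6 lie below control plant 3. The choice for a rise fixed this count, and 23.5% of all tested transcripts lay higher without overlap.

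Of the P450 transcripts that the study assigns to BR biosynthesis itself, Si001130m had the larger difference. It lay at 5.22 to 8.41 CPM in the heat-stressed plants (median 6.48). The control plants had 2.45, 2.02, 2.65, 1.65 and 2.25 CPM. The conditions were well apart, with the lowest heat-stressed plant 1.97-fold above the highest control plant and counts of 311 to 432 against 40 to 91. The means were 6.58 ± 1.04 CPM under heat (SD, n = 6) and 2.21 ± 0.387 CPM in the control plants (SD, n = 5), a log2 fold change of 1.57 (SE 0.15), or 2.98-fold. Relative to the other BR biosynthesis transcripts of the same plant, Si001130m held 20.5% to 29.0% of the counts of all 6 under heat and 8.36% to 13.2% in the control plants. Since Si001130m was chosen for its rise, this separation is a description too.

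Si010466m differed less. In the heat-stressed plants it had 3.11 to 4.45 CPM (median 3.78), and in control plants 1 to 5 it had 1.77, 2.43, 2.54, 2.11 and 0.949 CPM. The conditions did not overlap, but the lowest heat-stressed plant was only 1.23-fold above the highest control plant. Means were 3.78 ± 0.488 CPM under heat (SD, n = 6) and 1.96 ± 0.639 CPM in the control plants (SD, n = 5), and the log2 fold change was 0.95 (SE 0.21), or 1.94-fold. Control plant 5, with 32 counts, was the lowest, and without it the log2 fold change was 0.77. The share of Si010466m among the 6 BR biosynthesis transcripts overlapped between the conditions, at 11.6% to 17.5% under heat and 5.36% to 12.3% in the control plants.

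With TMM factors, edgeR's default filter and all 11 plants, none of the other 4 BR biosynthesis transcripts was called higher. Si009928m (log2 fold change 0.22, adjusted p = 0.0886), Si010072m (0.24, adjusted p = 0.481) and Si026259m (-0.20, adjusted p = 0.132) did not pass the threshold in edgeR's test. Si035549m was called lower, at -1.46 on the log2 scale (SE 0.42, adjusted p = 0.00742), with only 3 to 15 counts under heat and 4 to 19 in the control plants, and its value under library-size scaling was -0.37 (adjusted p = 0.409), or -1.44 relative to the median of all tested transcripts. Under that scaling the other 3 were called higher, at 0.17 (Si009928m), 0.23 (Si010072m) and -0.24 (Si026259m) relative to the median. Si009928m was also called higher with upper-quartile factors (0.28, adjusted p = 0.0320) and with at least 10 counts in every plant (0.33, adjusted p = 0.0136). The 6 BR biosynthesis transcripts summed to 26.2 ± 1.61 CPM under heat (SD, n = 6) and 19.8 ± 2.21 CPM in the control plants (SD, n = 5).

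BRI1 (Si000117m), the receptor and the only positive regulator in the study's list, had the smallest fold change of the 6. It had 6.66 to 11 CPM in the heat-stressed plants (median 8.89). In control plants 1 to 5 it had 4.29, 5.76, 7.90, 5.70 and 4.75 CPM. The conditions overlapped, since 4 of the 6 heat-stressed plants exceeded control plant 3 and heat-stressed plants 5 and 6 did not. The means were 8.71 ± 1.67 CPM under heat (SD, n = 6) and 5.68 ± 1.39 CPM in the control plants (SD, n = 5), with a log2 fold change of 0.62 (SE 0.17), or 1.53-fold.

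The negative regulator BIN2 was called lower with TMM factors. The log2 fold changes of its 3 transcripts were -1.03 for Si017348m (SE 0.09, adjusted p = 4.01e-07), -0.68 for Si001682m (SE 0.08, adjusted p = 3.75e-06) and -0.63 for Si006577m (SE 0.08, adjusted p = 1.06e-05), and under library-size scaling they were 0.01 (adjusted p = 0.945), 0.38 (adjusted p = 0.00579) and 0.44 (adjusted p = 9.62e-04). Relative to the median of all tested transcripts, the library-size values were -1.06, -0.69 and -0.63. They lie close to the values with TMM factors because the scaling shifts all transcripts nearly alike, so they do not test the scaling. In the ratio of BRI1 to BIN2 within a plant any factor per plant cancels. There were 13.7 ± 2.39 BRI1 counts per 100 BIN2 counts under heat (SD, n = 6) and 5.13 ± 1.44 in the control plants (SD, n = 5). The heat-stressed plants ran from 10.9 to 16.8 and the control plants from 3.60 to 7.37, so that this ratio did not overlap although the BRI1 levels did. BRI1 was chosen for its rise, and each BIN2 transcript was lower in every heat-stressed plant than in any control plant. The separation of the ratio therefore follows from the same comparison and is a description.

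**Figure D2:**
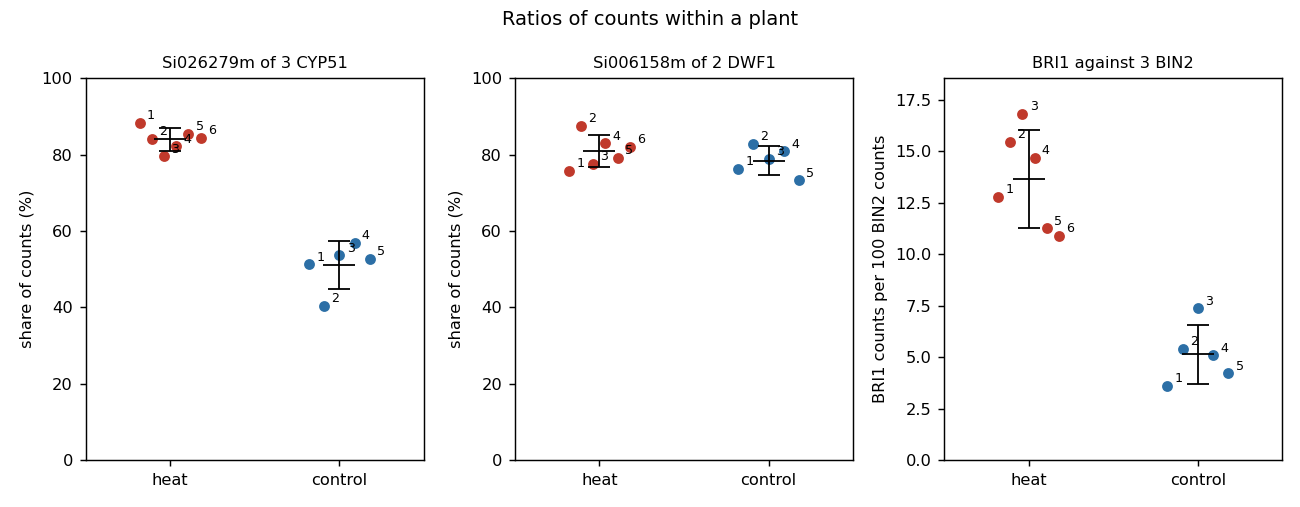
Ratios of counts within each of 6 heat-stressed and 5 control plants, which no scaling between plants affects: the share of Si026279m among 3 CYP51 transcripts, the share of Si006158m among 2 DWF1 transcripts, and BRI1 counts per 100 BIN2 counts. Points are plants with their number and bars are the mean ± SD. The CYP51 share (84.0% and 51%) and the BRI1 ratio (13.7 and 5.13) were apart between heat and control, and the DWF1 share (80.9% and 78.5%) overlapped. Si026279m and BRI1 were chosen for their rise, so these separations are a description.

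All 20 transcripts of the list passed edgeR's filter on low counts, among 18065 tested. The 6 chosen ones were called higher at an adjusted p under 0.05, where 32.2% of all tested transcripts were called higher, and 5 of them did not overlap between conditions, where 23.5% of all tested transcripts lay higher without overlap. The choice of the 6 fixed these counts. Their median log2 fold change was 1.70, and that of all tested transcripts was 0.02. Of all tested transcripts, 28.5% had a larger log2 fold change than BRI1, 20.8% than Si010466m, 11.8% than Si001130m, 9.36% than Si026279m, 6.21% than Si034967m and 4.93% than Si006158m. Just inside the choice lay BRI1 with a log2 fold change of 0.62, and just outside it lay Si026280m with 0.55 and Si010072m with 0.24.

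In the main fit, with TMM factors, edgeR's default filter and all 11 plants, none of the other 14 transcripts was called higher. In this fit 7 of the 14 were called lower (8 had an unadjusted p under 0.05), where 30.9% of all tested transcripts were called lower. The median log2 fold change of the 14 was -0.29. Because the risers had been taken out of the list by the same comparison, these counts are a description too. Besides BIN2, Si029407m and Si035549m, the 7 held 2 enzymes of the sterol chain. HYD1 (Si002887m), a sterol isomerase, had 0.722 to 1.35 CPM under heat and 2.17 to 3.97 CPM in the control plants, a difference of -1.58 in log2 units (SE 0.19, adjusted p = 6.89e-06). Under library-size scaling it had -0.51 (adjusted p = 0.0196), or -1.58 relative to the median of all tested transcripts. FACKEL (Si030203m), a sterol reductase, was at -0.26 on the log2 scale (SE 0.09, adjusted p = 0.0221), with 0.79 (adjusted p = 1.35e-04) under library-size scaling, or -0.28 relative to the median, and was called lower in only 10 of 21 alternative analyses. The methyltransferase SMT2 (Si036276m, -0.31, adjusted p = 0.0649), the desaturase DWF7 (Si001942m, 0.06, adjusted p = 0.678) and the reductase DWF5 (Si016932m, -0.15, adjusted p = 0.105) did not pass the threshold. The summed level of all 10 sterol transcripts was 90.4 ± 8.16 CPM under heat (SD, n = 6) and 77.7 ± 6.03 CPM in the control plants (SD, n = 5).

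**Figure D3:**
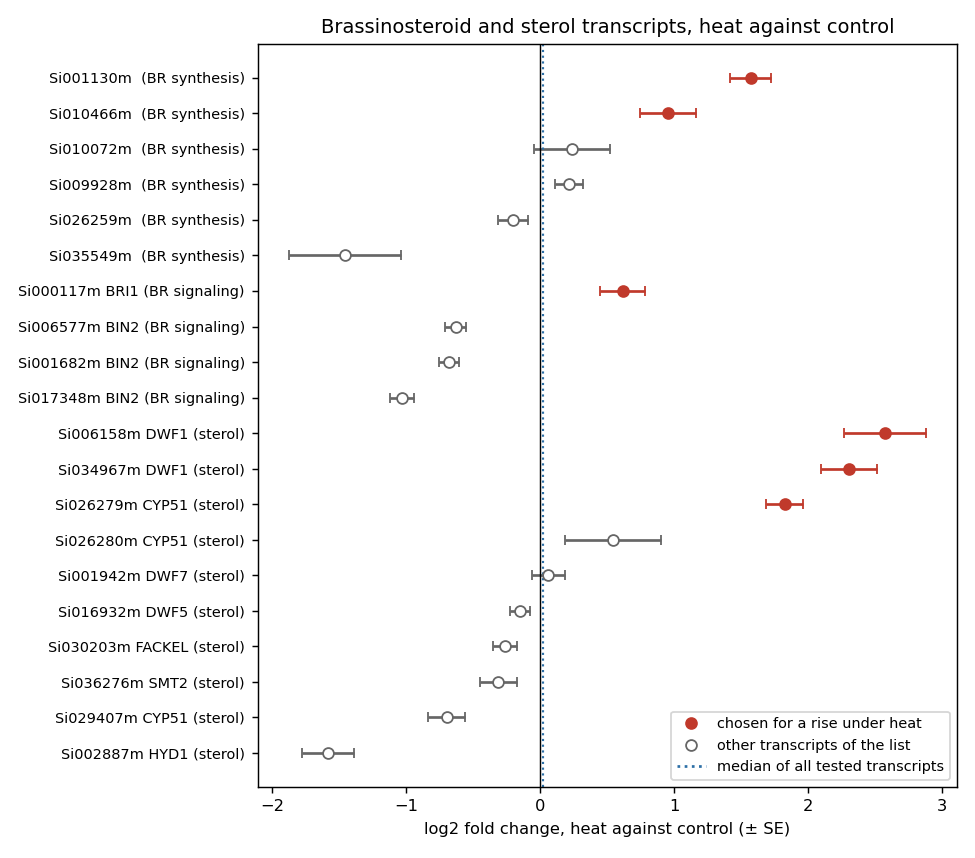
Log2 fold change of heat against control with TMM factors for the 20 listed transcripts, ± SE of the fit over 11 plants. Filled points are the 6 transcripts chosen for a rise, from 0.62 for BRI1 to 2.58 for the DWF1 copy Si006158m. Open points are the other 14, of which 7 were called lower, where 30.9% of all tested transcripts were called lower. The dotted line is the median of all tested transcripts (0.02).

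With library size as the only scaling the 6 transcripts had log2 fold changes from 1.64 for BRI1 to 3.61 for Si006158m. Relative to the median of all tested transcripts under that scaling, their log2 fold changes were 0.57 for BRI1, 0.91 for Si010466m, 1.55 for Si001130m, 1.80 for Si026279m, 2.27 for Si034967m and 2.54 for Si006158m. With TMM factors the same quantity ran from 0.59 for BRI1 to 2.55 for Si006158m, a likeness that follows from the near-uniform shift.

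How far plants of the same condition differed was not itself the rule of the choice. The 6 are, however, the listed transcripts called higher, and a call depends on this spread, so the SDs are a description. Si026280m, just outside the choice, had an SD of log2 CPM of 0.74 among heat-stressed plants and 0.40 among control plants. Among heat-stressed plants the SD of log2 CPM was 0.52 for Si006158m, and 86.0% of all tested transcripts had a smaller one. For the other 5 it ran from 0.19 (Si010466m) to 0.28 (BRI1), against a median of 0.27 over all tested transcripts. Among control plants the largest SDs were 0.56 for Si010466m, of which control plant 5 was the low end, and 0.54 for Si006158m. The remaining 4 had 0.26 to 0.33, against a median of 0.32. The DWF1 copy Si006158m therefore varied by 2.54-fold between heat-stressed plants and 2.59-fold between control plants, while Si001130m varied by 1.61-fold and 1.60-fold.

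Whether the 6 transcripts varied together among plants of a condition was examined next. Deviations of log2 CPM from the mean of the condition were compared for the 15 pairs of transcripts over all 11 plants, with plants permuted within their condition in an exact 2-sided test of 86400 orders. In 0 of the 15 pairs did Pearson's r or Spearman's rho pass an adjusted p of 0.05 (3 pairs for r and 5 for rho at an unadjusted p under 0.05), and r was positive in 8 pairs. The DWF1 copies had r = 0.71 (exact permutation p = 0.0225, adjusted p = 0.168) and rho = 0.71 (exact permutation p = 0.0223, adjusted p = 0.141). Their r was 0.59 without control plant 4 and heat-stressed plant 6, which lay farthest out in Si034967m. Heat-stressed plant 2, farthest out in Si006158m (0.92), was kept. Si001130m and Si006158m had r = -0.76 (exact permutation p = 0.0149, adjusted p = 0.168) and rho = -0.76 (exact permutation p = 0.0175, adjusted p = 0.141). The r of this pair was -0.66 without control plant 4 and heat-stressed plant 5, which lay farthest out in Si001130m. Heat-stressed plant 2 was again kept. Without control plant 3, this pair alone passed the threshold (r = -0.89, exact permutation, adjusted p = 0.0130), and under library-size scaling its r was -0.20. The median r over the 15 pairs also depended on the scaling, at 0.17 with TMM factors and 0.50 with library size only.

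**Figure D4:**
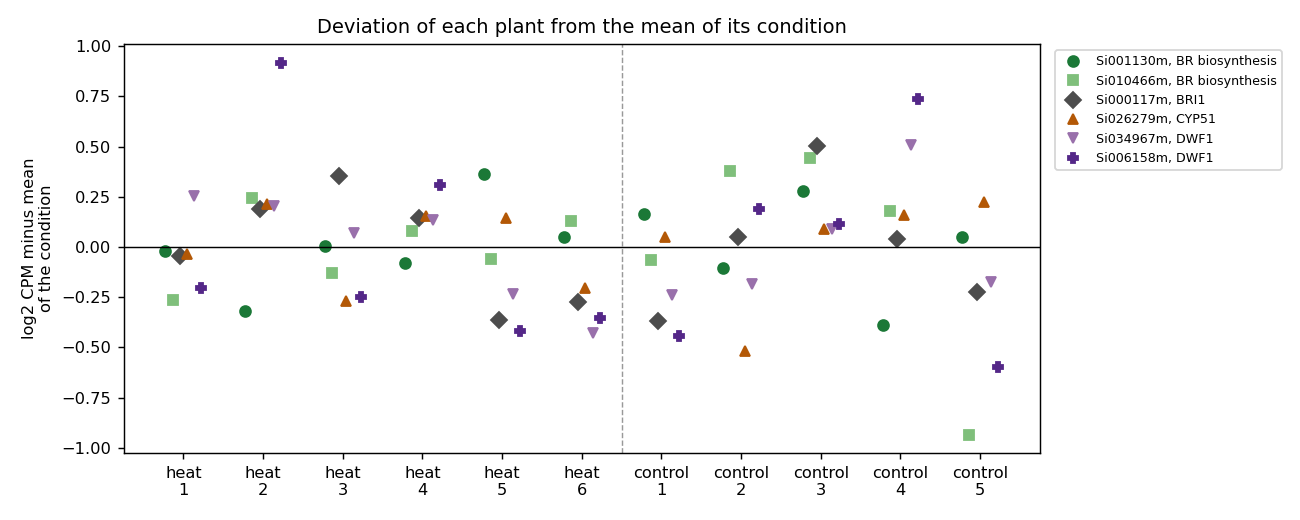
Deviation of log2 CPM from the mean of the condition for each of the 6 transcripts in 6 heat-stressed plants (left of the dashed line) and 5 control plants. Heat-stressed plant 2 had the highest Si006158m (0.92) together with the lowest Si001130m of its condition (-0.32), and control plant 5 had the lowest Si010466m (-0.94).

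Plant by plant, 5 of the 6 transcripts were above the mean of their condition in heat-stressed plants 2 and 4, and 5 were below it in heat-stressed plant 1. Among the control plants, all 6 were above the mean in plant 3 and 5 were above it in plant 4. Control plants 3 and 4 also had the lowest psbA shares (61.8% and 63.8%) and the largest TMM factors (0.793 and 0.796) of their condition. Whether transcripts in general lay above the mean in these plants was not tested. BRI1 was lowest in heat-stressed plant 5, where Si001130m was highest.

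Over all 11 plants, the transcripts whose log2 CPM was most like each of the 6 are given by identifier. For Si001130m they were Si014166m, Si026235m and Si022362m (Pearson's r = 0.99 each), among 1734 tested transcripts with r above 0.9. The study's figure on oxidative stress genes names Si014166m as a copper/zinc SOD2. For Si026279m they were Si014073m, Si020421m and Si021000m (r = 0.99 each), among 2400. For Si034967m they were Si011965m (r = 0.997), Si000792m and Si009391m (r = 0.99 each), among 2325, and for Si006158m Si000421m (r = 0.987), Si027905m and Si006716m (r = 0.98 each), among 1685. BRI1 and Si010466m had far fewer close matches, with 66 and 86 transcripts above 0.9. The closest were Si024584m, Si021215m and Si039043m for BRI1 (r = 0.96, 0.95 and 0.95) and Si028696m, Si025979m and Si006359m for Si010466m (r = 0.96, 0.96 and 0.95). These values are dominated by the difference between the conditions, which the plants of both share.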

How the data were processed

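RNA-seq was made from leaves of 11 plants, 6 heat-stressed and 5 control. Per the methods and labels, ribosomal RNA was depleted and the libraries were strand-specific. The authors trimmed reads (Trimmomatic), used TopHat2 with the genome of *S. italica* and took exon counts in the union mode of HTSeq. The strand setting of the counting is not given in the sources used here. The authors deposited raw counts in 2 files per plant, for read pairs and for single reads, which were added. The sum column in 10 files matched exactly. The 5 summary lines of each file were left out. Differences were fitted with edgeR 4.0.16 (filterByExpr defaults, TMM factors, quasi-likelihood test, Benjamini-Hochberg over all tested transcripts, threshold 0.05) in R 4.3.3, and the standard error is the log2 fold change over the square root of F. Log2 CPM used a prior count of 2. DESeq2 1.42.0 served as an alternative. The fit and the permutation test were tested on simulated data. Figures used matplotlib 3.10.9 under Python 3.11.15.

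The 6 transcripts and the lists were chosen with earlier results of these data known. Named are the 6, any of the other 14 of the same list, leaf markers, and for each of the 6 the 3 tested transcripts with the highest r. Alternatives were other scalings, filters, files and tests, plant number as a block, and each plant left out. Replicates are single plants by label, so p-values measure the spread between these libraries. No 2 libraries agreed within sampling noise (chi-square per degree of freedom at least 13.4 without psbA). Of the 20 listed identifiers 0 were found in the reference gene table of *S. viridis*, so a list by annotation, promoter motifs and lengths were not used here.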

Additional observations from a re-analysis of the deposited data

Results flagged for a closer look

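Among 20 sets of plants examined (each of the 6 transcripts in each condition, and 4 within-plant ratios), 1 held a plant far from the others by Dixon's 95% critical value, a rule set to mark about 1 in 20 such sets by chance. The CYP51 transcript Si026279m had 3.49 CPM in control plant 2, against 5.20 CPM in the next lowest control plant, and this gap was 0.716 of the range of the 5 control plants. Control plant 2 had the lowest share of Si026279m among the CYP51 counts, at 40.4%, but this share contains the same counts and is no separate observation.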

How the results depend on the processing

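Every log2 fold change of the 6 transcripts kept its sign under all alternatives that could test it. Si034967m fell out of the test when every plant had to have 10 counts. With single reads alone 5 of the 6 were called higher, and the log2 fold change of Si010466m was 0.80 (SE 0.38). With each plant left out in turn they ran from 1.48 to 1.67 for Si001130m, 0.77 to 1.07 for Si010466m, 0.53 to 0.76 for Si000117m, 1.72 to 1.90 for Si026279m, 2.24 to 2.48 for Si034967m and 2.36 to 2.82 for Si006158m. Library size as the only scaling moved them to 2.62, 1.98, 1.64, 2.87, 3.34 and 3.61 in the same order, since it moved all transcripts (13216 higher and 1385 lower, against 5818 and 5583 with TMM factors, and 85.4% against 51% of changes above 0). Single reads alone gave 3004 higher and 2792 lower among the 10434 transcripts that could be tested, and with plants left out the counts were 5563 to 5742 higher and 5100 to 5515 lower. Of the other 14 transcripts of the list, 10 were higher and 1 lower under library-size scaling. That scaling lifted the median of all tested transcripts to 1.07. With upper-quartile factors and with at least 10 counts in every plant, 1 was higher (Si009928m). With single reads alone HYD1, Si035549m, Si010072m and Si026280m could not be tested. There, 4 of the 14 were lower, and FACKEL was no longer called. With plants left out, 0 to 1 were higher (Si009928m, without control plant 3 or heat-stressed plant 4) and 6 to 9 lower. FACKEL was no longer called lower without heat-stressed plant 1, 2, 4, 5 or 6 (adjusted p up to 0.0814). The heat-minus-control difference in the share of Si001130m among BR biosynthesis counts was 13.9 percentage points and 17.2 with single reads alone, and 13.1 to 14.8 with plants left out.

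Among pairs of the 6, 0 to 1 passed the threshold with plants left out, and the r of Si001130m with Si006158m ran from -0.89 to -0.65. The median within-condition SD of log2 CPM in control plants was 0.50 under library-size scaling, and 0.33 to 0.36 with plants left out. The cause was not tested for any of these. Same-numbered plants were not treated as paired (correlations of their deviations from -0.02 to 0.15, with 2 of 5 control plants closest to their own number). These values do not settle whether they were. A replicate block by plant number gave an SE of 0.19 for Si006158m (0.30 without the block) and 0.11 for BRI1 (0.17 without). For the rest of the 6 the SE was 0.15 to 0.21 with the block and 0.14 to 0.21 without. With plant number as a replicate block the 6 log2 fold changes were 1.57, 0.97, 0.68, 1.87, 2.39 and 2.62 in the order above, and 6 of the other 14 were lower, without FACKEL (adjusted p = 0.0770). Si034967m, with 7 to 21 counts in a control plant, is the one most limited by depth.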
